A study of Homo sapiens with 4 samples.

Results

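The clustered protocadherin genes were examined in nucleosome maps of the human cell line BE(2)C, which was established from a neuroblastoma and carries an amplified MYCN gene. They were taken from a GENCODE annotation on GRCh37 (hg19) as the protein-coding genes of chromosome 5 named PCDHA, PCDHB, PCDHGA, PCDHGB or with a C-type number. This gave 53 of 20163 protein-coding genes, with 15 in the alpha, 16 in the beta and 22 in the gamma cluster. All 53 lie on the plus strand. Their transcription start sites (TSSs) run from position 140165725 (PCDHA1) to position 140868648 (PCDHGC5) of chromosome 5. Cells of the control group had been transfected with a control siRNA and cells of the MYCN knockdown group with an siRNA against MYCN, both at 80 nM per the labels. The methods of the study name a lower concentration. Both groups share the wild type genotype of the line, the transfection reagent and the crosslinked chromatin cut with micrococcal nuclease (MNase). Each group had 2 libraries, numbered 1 and 2 in the sample titles. The study's methods call the libraries of a group biological replicates. They come from 1 cell line, and neither the labels nor the methods say how the cultures were kept apart, so that p-values measure the spread between these libraries.

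Protocadherins are cadherin-like adhesion proteins of the cell surface. In the alpha and gamma clusters each variable exon codes for the extracellular part of a protein and is spliced to constant exons that a cluster shares, whereas beta genes have a single coding exon. Each variable exon has a promoter of its own. A neuron uses a few of these promoters, chosen largely at random, and the set of proteins that results lets its branches tell self from non-self. Most of these promoters carry a conserved sequence element with the core letters CGCT, at which the insulator protein CTCF binds together with cohesin. The C-type members (PCDHAC1, PCDHAC2, PCDHGC3, PCDHGC4 and PCDHGC5) are used more uniformly than the others.

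A nucleosome list gives, for each called nucleosome of 147 bp, the number of read pairs centred on it. The replicate 1 libraries held 147726171 (control) and 147370973 (knockdown) reads in nucleosomes, and the replicate 2 libraries held 242544884 (control) and 239257113 (knockdown). These sums differed by replicate number far more than by group. The median nucleosome had 12 reads in both replicate 1 libraries and 18 in both replicate 2 libraries, with a minimum of 6, so a place without a listed nucleosome may still hold one with fewer reads. Where 4 values stand in a row, they belong to control 1, control 2, knockdown 1 and knockdown 2, the numbers being those of the replicates. The MYCN promoter held 97.7, 81.1, 100.2 and 82.1 times the reads of the median promoter in the 4 libraries. This high level was seen in every library, and nucleosome maps cannot check the knockdown itself. Across the members, 36 had no stretch of 100 bases within 1000 bp of the TSS that occurs again in the genome. In 8 members more than 10% of the stretches were repeated, the highest share being 28.7% in PCDHB8 and PCDHB13, and reads may be assigned less surely there.

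The promoters differed in whether a nucleosome lay over the CGCT letters, and 6 of them are shown because they hold like letters in unlike states. The stretches run from 150 to 31 bases upstream of the TSS on the plus strand of GRCh37, and capitals mark every CGCT between 100 and 30 bases upstream. The first 3, from PCDHA2 (chr5:140174287-140174406), PCDHB16 (chr5:140561812-140561931) and PCDHGB1 (chr5:140729516-140729635), had no nucleosome over these letters in any of the 4 libraries.
PCDHA2: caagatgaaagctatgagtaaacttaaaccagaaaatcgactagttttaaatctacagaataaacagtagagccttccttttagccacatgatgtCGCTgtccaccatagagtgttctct
PCDHB16: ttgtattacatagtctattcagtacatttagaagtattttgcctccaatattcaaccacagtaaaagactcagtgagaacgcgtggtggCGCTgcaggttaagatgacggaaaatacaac
PCDHGB1: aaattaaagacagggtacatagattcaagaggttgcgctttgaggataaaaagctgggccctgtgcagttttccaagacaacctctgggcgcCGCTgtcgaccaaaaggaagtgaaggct
The other three, from PCDHA4 (chr5:140186503-140186622), PCDHB9 (chr5:140566585-140566704) and PCDHGB6 (chr5:140787438-140787557), had one in all 4 libraries.
PCDHA4: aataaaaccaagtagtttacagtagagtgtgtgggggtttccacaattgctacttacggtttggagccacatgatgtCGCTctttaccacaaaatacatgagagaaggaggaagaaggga
PCDHB9: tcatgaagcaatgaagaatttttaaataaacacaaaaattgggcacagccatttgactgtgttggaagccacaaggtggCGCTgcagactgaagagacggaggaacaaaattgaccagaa
PCDHGB6: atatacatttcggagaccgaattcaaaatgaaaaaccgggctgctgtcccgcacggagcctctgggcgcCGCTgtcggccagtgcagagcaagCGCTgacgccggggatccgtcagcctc

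Within each cluster the open and the covered promoter shared an unbroken run of letters around CGCT. PCDHA2 and PCDHA4 shared 17 bases, agccacatgatgtCGCT, PCDHB16 and PCDHB9 shared 13, ggtggCGCTgcag, and PCDHGB1 and PCDHGB6 shared 19, cctctgggcgcCGCTgtcg. The pairs were chosen after their nucleosome states were known. A match of letters is a description and not a site that was shown to be bound.

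Over all members, CGCT stood on the coding strand between 100 and 30 bases upstream of the TSS in 46 of 53 promoters (86.8%), against 27.4% of all protein-coding promoters with reads in the 4 libraries. These were 13 of 15 alpha, 13 of 16 beta and 20 of 22 gamma promoters, and the median position was 55 bases upstream. The range of positions was chosen after the positions had been seen. PCDHA7, PCDHA9, PCDHB5, PCDHB6, PCDHB8, PCDHGA12 and PCDHGC5 had none there. The annotated TSS of PCDHA7 is its start codon (distance 0 bp, against a median of 171 bp over members), so its letters and its TSS window were read further downstream in the gene than those of the others. In the 300 bases from 250 upstream to 50 downstream, read on both strands, CGCT occurred in 51 of 53 members (96.2%) and in 82.2% of all promoters. The difference was larger in the narrower range, but that range was chosen from the members' own positions. The comparison therefore cannot decide whether the place of the letters sets the members apart. The letters GGNGGCNG, a short form of a CTCF motif, occurred in 5 of 53 members (9.43%) and in 63.5% of all promoters. The TATA box letters TATAAA occurred in 12 members (22.6%) against 9.80% of all promoters, in 6 alpha, 2 beta and 4 gamma genes. CACGTG, the E-box letters that MYC proteins can bind, occurred in 3 alpha members, in 0 of 16 beta and 0 of 22 gamma members, and in 8.74% of all promoters. The members were poor in G and C, with a median of 39.7% over the 300 bases against 63.7% for all promoters, whereas the 5 C-type members had a median of 60.7%.

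**Figure D1:**
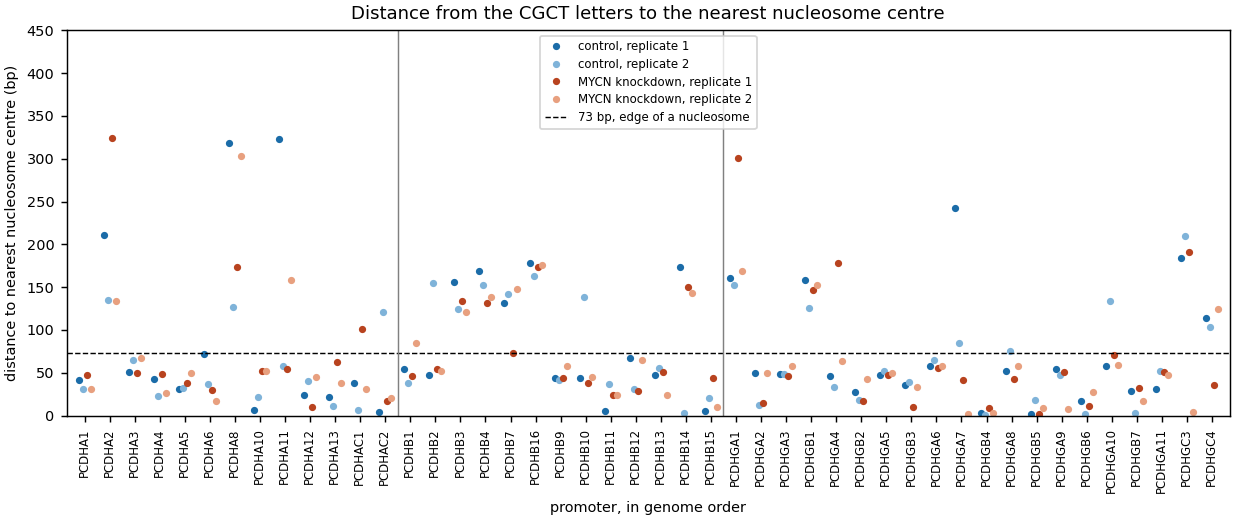
Distance in bp (vertical axis) from the CGCT letters to the nearest nucleosome centre in each library (points, coloured by library) for the 46 members with CGCT between 100 and 30 bases upstream of the TSS, in genome order. Points under the dashed line at 73 bp lie inside a nucleosome; in 25 promoters all 4 points lie under it and in 8 promoters none does.

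A nucleosome lay over the CGCT letters (centre within 73 bp) in 33 and 30 of the 46 promoters of the controls and in 34 of 46 in both knockdown libraries. These are shares of 71.7%, 65.2%, 73.9% and 73.9%, against 28.4%, 34.0%, 27.5% and 34.8% of all promoters with the letters at these positions. The letters were covered in all 4 libraries in 25 of 46 members (54.3%) and in 11.7% of all such promoters, and uncovered in all 4 in 8 members (17.4%) and in 46.4% of all such promoters. The other 13 members were covered in some libraries only, and the plot of distances to the nearest nucleosome centre shows values on both sides of the limit with no gap at it. The extremes lay far apart. In PCDHB16 the nearest centre was 178.5, 162.5, 173.5 and 175.5 bp away in the 4 libraries. In PCDHGB5, by contrast, it was 1.5, 18.5, 1.5 and 8.5 bp away, so that the letters lay near the centre of a nucleosome. The 8 uncovered members were PCDHA2, PCDHA8, PCDHB3, PCDHB4, PCDHB7, PCDHB16, PCDHGA1 and PCDHGB1. In PCDHB7 the nearest centre of knockdown replicate 1 was 73.5 bp away, just past the limit, and the other 3 libraries had 131.5, 142.5 and 147.5 bp.

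A TSS window from 200 bp upstream to 50 bp downstream was scored as empty where no nucleosome lay at least 80% inside. It was empty in 25 and 22 of 53 members in the controls and in 21 of 53 in each knockdown library. The shares were 47.2%, 41.5%, 39.6% and 39.6%, below those of all promoters in every library (58.4%, 52.6%, 60.3% and 52.1%). By cluster, 4, 3, 6 and 5 of 15 alpha windows, 10, 9, 7 and 6 of 16 beta windows and 11, 10, 8 and 10 of 22 gamma windows were empty in the same order of libraries. The alpha windows were thus the least often empty in 3 of the 4 libraries, and in knockdown replicate 1 the gamma windows were, at 36.4% against 40.0%. In the beta cluster both controls had more empty windows than both knockdown libraries, whereas over all promoters the groups overlapped. These shares were not tested, since members are not replicates. The window was empty in all 4 libraries in 12 members (22.6%, against 32.3% of all promoters) and filled in all 4 in 17 (32.1%, against 19.9%), and 24 were mixed. The 12 were PCDHA2, PCDHA8, PCDHB3, PCDHB4, PCDHB6, PCDHB7, PCDHB16, PCDHGA1, PCDHGB1, PCDHGA5, PCDHGA6 and PCDHGA10. The 17 were PCDHA4, PCDHA5, PCDHA6, PCDHA9, PCDHA12, PCDHB1, PCDHB9, PCDHB11, PCDHB15, PCDHGA11, PCDHGC5 and the PCDHGB genes from PCDHGB2 to PCDHGB7.

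Windows scored as empty were of different kinds. In PCDHB16 the nearest nucleosome centres upstream of the TSS lay at -238, -222, -236 and -235 bp in the 4 libraries, and the nearest downstream at 125, 128, 114 and 126 bp. In PCDHB6 they lay at -206, -215, -204 and -204 bp and at 99, 78, 110 and 100 bp, and PCDHGB1 had -217, -227, -203 and -209 bp and 102, 69, 105 and 117 bp. In these promoters a stretch close to or above the length of a nucleosome was free in control and knockdown alike. Its neighbours moved over the 4 libraries within 16 bp upstream and 14 bp downstream in PCDHB16, 11 and 32 bp in PCDHB6, and 24 and 48 bp in PCDHGB1. PCDHGA5 was different, since a nucleosome was centred just downstream of the TSS, at 10, 14, 10 and 12 bp. PCDHGA6 had one at 20, 26, 17 and 20 bp. These nucleosomes covered the TSS and the CGCT letters and reached out of the window by more than 20% of their length. Where an overlap of 50% counted as filled, 7 instead of 12 members were empty in all 4 libraries. PCDHA2 and PCDHA8 were of yet another kind, with nearest upstream centres that ranged from -403 to -197 bp and from -564 to -213 bp, and few reads overall.

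**Figure D2:**
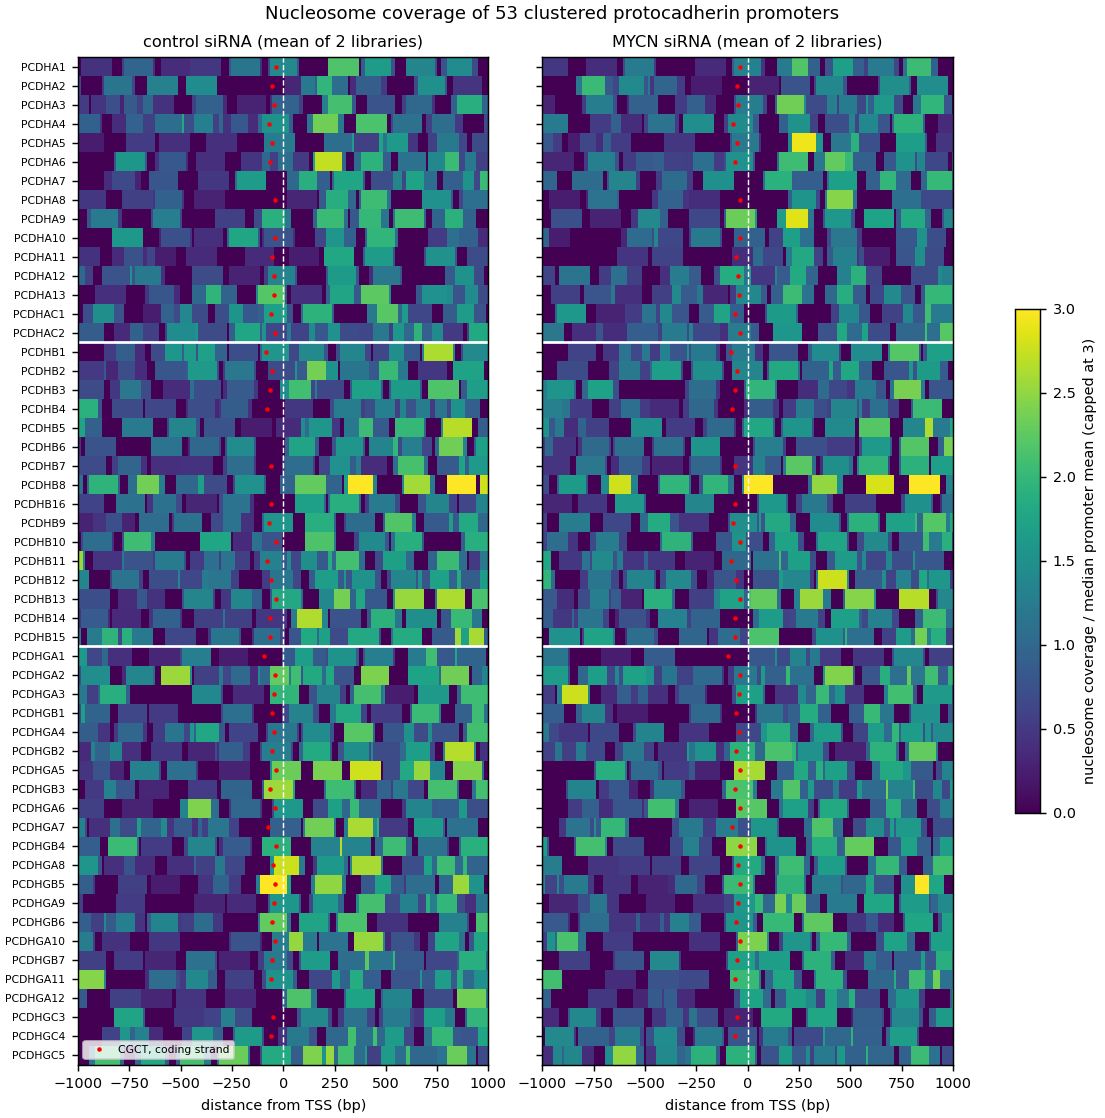
Nucleosome coverage (colour, relative to the median promoter, capped at 3) at each distance from the TSS in bp (horizontal axis) for the 53 members in genome order (rows), as the mean of the 2 control libraries (left) and of the 2 knockdown libraries (right). White lines part the alpha, beta and gamma clusters and red points mark CGCT; dark stretches over the red points are seen in PCDHB3, PCDHB4, PCDHB7 and PCDHB16 on both sides, and coverage is denser right of the TSS.

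In the gamma cluster, variable exons of the PCDHGA and PCDHGB types alternate along the chromosome. A filled window was found in all 4 libraries in 6 of 7 PCDHGB promoters and 1 of 12 PCDHGA promoters, a split that was seen in the data first and was not tested. The nucleosome of PCDHGB6 was centred at -39, -54, -44 and -28 bp and that of PCDHGB7 at -24, -55, -20 and -36 bp, inside the window. PCDHGA3 had its nearest downstream centre at 4, 4, 2 and 14 bp. With an overlap of 50%, 6 of 7 PCDHGB and 8 of 12 PCDHGA windows were filled in all 4 libraries, so most genes of both types had a nucleosome at the TSS and differed in its exact place. Of the 7 PCDHGB genes, PCDHGB4 and PCDHGB5 had repeats in 20.7% of their stretches, and 4 of the 5 without repeats over 10% were filled.

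Coverage profiles were averaged over the members of each cluster. Coverage here is the number of reads whose nucleosome covers a position, divided by the mean coverage of the median promoter. The lowest coverage was sought from -300 to 100 bp and the highest from 100 to 350 bp, with the TSS at 0. Over all promoters it was lowest 20 to 30 bp upstream of the TSS (0.575 to 0.613 in the 4 libraries) and highest 120 to 130 bp downstream (1.39 to 1.49), the usual form of a free region before a first nucleosome. In the gamma cluster the TSS itself was covered, at 1.66, 1.47, 1.61 and 1.45, against 0.596 to 0.653 for all promoters. The lowest gamma coverage lay further upstream, at -140, -150, -150 and -110 bp, with values of 0.209, 0.289, 0.168 and 0.214. The beta cluster had its low at -90, -120, -110 and -50 bp (0.390, 0.302, 0.437 and 0.600). The alpha cluster had a peak 220 bp downstream in 3 libraries and 230 bp in knockdown replicate 2, with coverage of 1.69, 1.86, 1.76 and 2.05. Within the range searched, the lowest alpha coverage lay upstream in the controls, at -290 and -270 bp (0.127 and 0.349). In the knockdown libraries it lay downstream, at 100 and 70 bp (0.202 and 0.325). The values at -290 and 100 bp lie next to or at an edge of that range, so lower coverage beyond it was not sought. At 80 bp downstream alpha coverage was 0.187, 0.462, 0.246 and 0.466, so that control 1 was low there as well. Beta coverage at the TSS was 0.677 and 0.825 in the controls and 0.956 and 0.930 after knockdown, without overlap. With 2 libraries per group such a separation can readily arise from the spread between libraries. Alpha coverage there was 0.994, 0.977, 1.18 and 0.710, and that of all promoters 0.653, 0.614, 0.630 and 0.596. Both overlapped between the groups. Within the range searched, the highest beta coverage lay at 160, 130, 110 and 110 bp and the highest gamma coverage at 350, 220, 200 and 190 bp. These were nearer to the TSS in both knockdown libraries, but the gamma value of control 1 is the edge of that range. In knockdown 2 gamma coverage was higher at the TSS (1.45) than at 190 bp (1.42). The gamma coverage at the TSS and the beta and gamma lows overlapped between the groups. These positions were not tested, since each is a single point of a mean over 15 to 22 promoters.

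**Figure D3:**
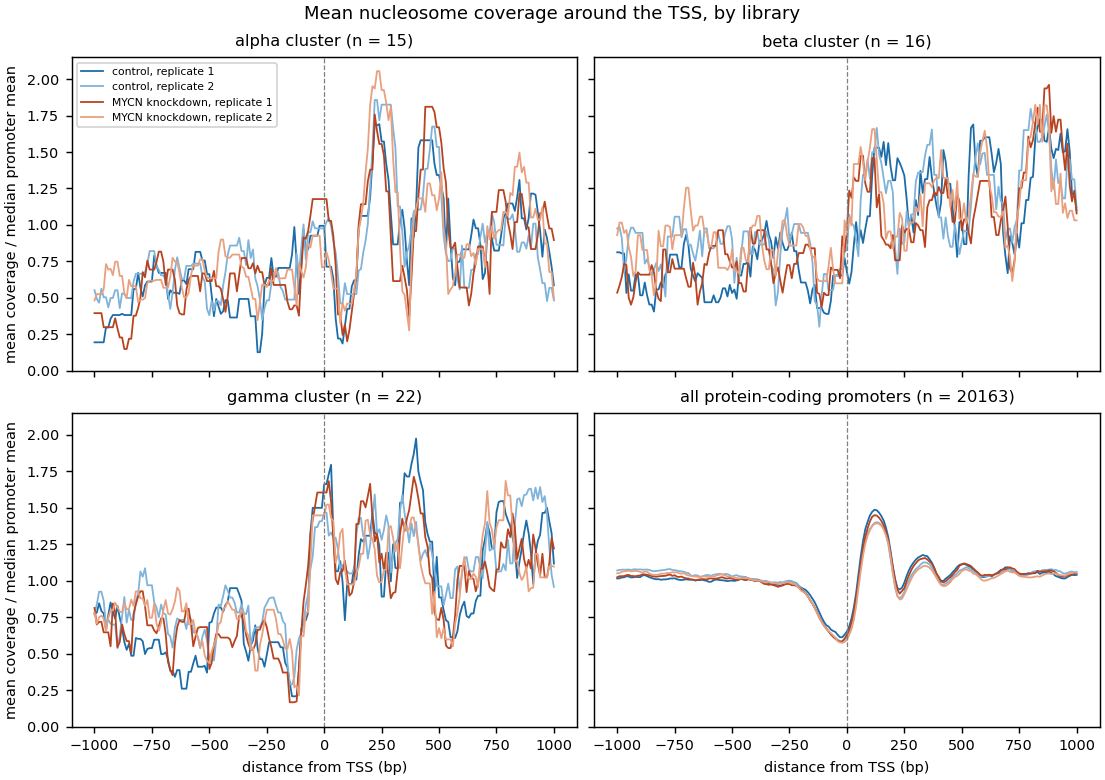
Mean nucleosome coverage relative to the median promoter (vertical axis) against distance from the TSS in bp (horizontal axis) for the alpha, beta and gamma clusters and for all protein-coding promoters, with 1 line for each of the 4 libraries. The gamma lines lie between 1.45 and 1.66 at the TSS, where the lines of all promoters lie between 0.596 and 0.653.

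The read density per bp in the TSS window was divided by that in the rest of the 1000 bp on both sides. The alpha cluster gave 1.20, 1.04, 1.09 and 0.846 in the 4 libraries, and the gamma cluster gave 1.07, 0.901, 1.11 and 1.01. The beta cluster gave 0.480, 0.515, 0.668 and 0.507, and all promoters gave 0.649 to 0.679. Window density was thus near that of the flanks in alpha and gamma promoters, and the beta ratios reached the value of all promoters in knockdown replicate 1 alone.

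Reads were unevenly spread on the sides of the TSS. In each of the 4 libraries 50 of 53 members (94.3%) had more reads in the 2000 bp downstream than in the 2000 bp upstream, against 58.0%, 55.3%, 58.3% and 55.3% of all promoters. The downstream stretch holds most of the variable coding exon. The median member had 34.0 reads per kb upstream and 61.5 downstream in control replicate 1, 65.0 and 94.0 in control replicate 2, 37.5 and 56.5 in knockdown replicate 1, and 65.0 and 88.5 in knockdown replicate 2. Base composition stepped in the same direction. The median G and C content was 33.5% upstream and 54.9% downstream in the alpha, 34.7% and 52.3% in the beta and 36.4% and 52.3% in the gamma cluster, and 49.4% and 52.1% over all promoters. MNase cutting, amplification and mapping depend on base composition, and its part in the step was not tested.

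Promoter occupancy was the number of reads in nucleosomes centred within 1000 bp of the TSS, divided by the value of the median promoter of the library. All windows had the same length. In the alpha cluster the median member stood at 0.755, 0.810, 0.845 and 0.814 in the 4 libraries, and 12 or 13 of the 15 members lay below the median promoter. The beta cluster had 0.929, 1.03, 0.932 and 0.967, and the gamma cluster 0.915, 1.01, 0.947 and 0.952. The alpha cluster was lowest in every library, and beta and gamma differed by no more than 0.018, less than the spread between libraries (SD 0.047 for beta and 0.040 for gamma, n = 4). Control and knockdown medians overlapped in the beta and gamma clusters, and in the alpha cluster the knockdown medians lay just above those of the controls (0.814 against 0.810 at the nearest). Scaled to the promoters of chromosome 5 instead, the means over libraries were 0.890 for alpha, 1.07 for beta and 1.06 for gamma, so that beta and gamma moved from below to above 1.

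**Figure D4:**
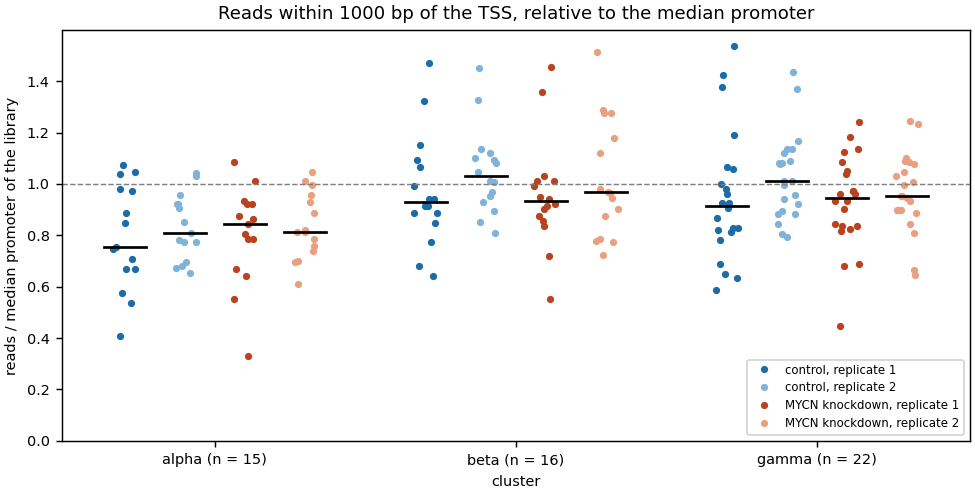
Reads within 1000 bp of the TSS divided by the median promoter of the library (vertical axis) for each member (points) of the alpha, beta and gamma clusters in each library (colours); black bars are medians. The alpha medians lie between 0.755 and 0.845, below those of the beta and gamma clusters in every library.

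Among the alpha members PCDHA9 was highest, with 94, 175, 96 and 175 reads (mean relative occupancy 0.977), and PCDHA11 lowest, with 57, 110, 34 and 116 reads (0.554). Repeats took 20.5% of the stretches of PCDHA9 and 0% of those of PCDHA11. In the beta cluster PCDHB8 had 156, 244, 150 and 253 reads (1.47) and PCDHB16 had 68, 169, 57 and 121 (0.731). In the gamma cluster PCDHGA2 was highest, with 151, 241, 128 and 208 reads (1.34), and PCDHGA1, the first gene of the cluster, lowest, with 69, 150, 46 and 108 (0.659). The lowest members of the beta and gamma clusters had open windows in all 4 libraries, whereas PCDHA11 had 0, 9, 6 and 0 reads in its window. Window reads are part of the occupancy, and nucleosomes under 6 reads are not listed, so low occupancy and an empty window are linked by their definitions. Across the 53 members, mean occupancy and G and C content of the same 2001 bp had a Pearson correlation of 0.35, and of 0.56 over the 48 members other than the C-type, as a description over promoters that share libraries.

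The C-type genes and PCDHB1, which are known to stand apart from the other members in sequence, had no common nucleosome state. PCDHGC5 held 163, 230, 122 and 206 reads (1.33) and its window was filled in all 4 libraries, with a nucleosome centred at -34, -43, -35 and -28 bp. PCDHAC1 had 103, 155, 90 and 131 reads (0.888) and an empty window in knockdown replicate 1 alone. PCDHAC2 had 110, 173, 81 and 169 reads (0.966) and an empty window in control replicate 2 alone. PCDHGC3 (87, 135, 84 and 159 reads, 0.848) was empty in 3 libraries and held 7 reads in its window in knockdown replicate 2, and PCDHGC4 (102, 158, 99 and 150 reads, 0.941) was empty in 3 and held 12 in knockdown replicate 1. PCDHB1, with 113, 188, 106 and 151 reads (1.03), was filled in all 4. Single libraries decided 4 of these 6 windows, and the windows held at most 23 reads.

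The gap between the nucleosome centres that flank the TSS had a median of 283 ± 16.5 bp in the alpha, 245 ± 24.0 bp in the beta and 260 ± 39.4 bp in the gamma cluster (mean of the library medians ± SD, n = 4). The spread between libraries was as large as the differences among beta and gamma. Over all promoters the medians were 313, 286, 325 and 285 bp. PCDHA8 had the widest gap of the alpha cluster, 843, 448, 497 and 656 bp, and PCDHAC2 the narrowest, 233, 246, 216 and 255 bp. In the beta cluster PCDHB4 had 563, 307, 294 and 294 bp and PCDHB9 had 201, 205, 156 and 170 bp, so that these did not overlap. In the gamma cluster PCDHGA9 ranged from 151 to 1057 bp over the libraries and PCDHGB7 from 151 to 210 bp. Repeated measurement was close for PCDHB16 (363, 350, 350 and 361 bp) and PCDHB6 (305, 293, 314 and 304 bp).

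Few single nucleosomes kept their place in all libraries. Of the 474 nucleosomes of control replicate 2, the library with the most reads, within 1000 bp of a member TSS, 61 (12.9%) had a centre within 20 bp in each of the other 3 libraries, against 16.7% for all promoters. The shares were 10.2% in the alpha, 16.9% in the beta and 11.6% in the gamma cluster. PCDHB6, PCDHB9, PCDHGA5 and PCDHGB6 had 3 such nucleosomes each. Distances between neighbouring centres were averaged only where they lay between 100 and 300 bp. Their mean was 206 to 213 bp across the clusters over the 4 libraries, and 207 to 209 bp over the autosomes. These limits bound the mean, which is therefore not that of all neighbouring centres.

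For the comparison of MYCN knockdown with control, reads per promoter were tested with edgeR across 20099 promoters. No promoter passed an adjusted p of 0.05 (0%), with 696 (3.46%) at an unadjusted p under 0.05, and DESeq2 called none either, with 223 at an unadjusted p under 0.05. Of the 53 members 0 passed, and 1 had an unadjusted p under 0.05, which is 1.89% of them. The fitted log2 changes ran from -0.47 to 0.38 with a median of -0.02 (all promoters -0.00), 25 were above and 28 below 0, and standard errors ran from 0.17 to 0.29. By cluster the medians were -0.04 (alpha), 0.00 (beta) and -0.03 (gamma). The 5th and 95th percentiles of all promoters were -0.32 and 0.33, a narrower measure than the full range given for the members.

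**Figure D5:**
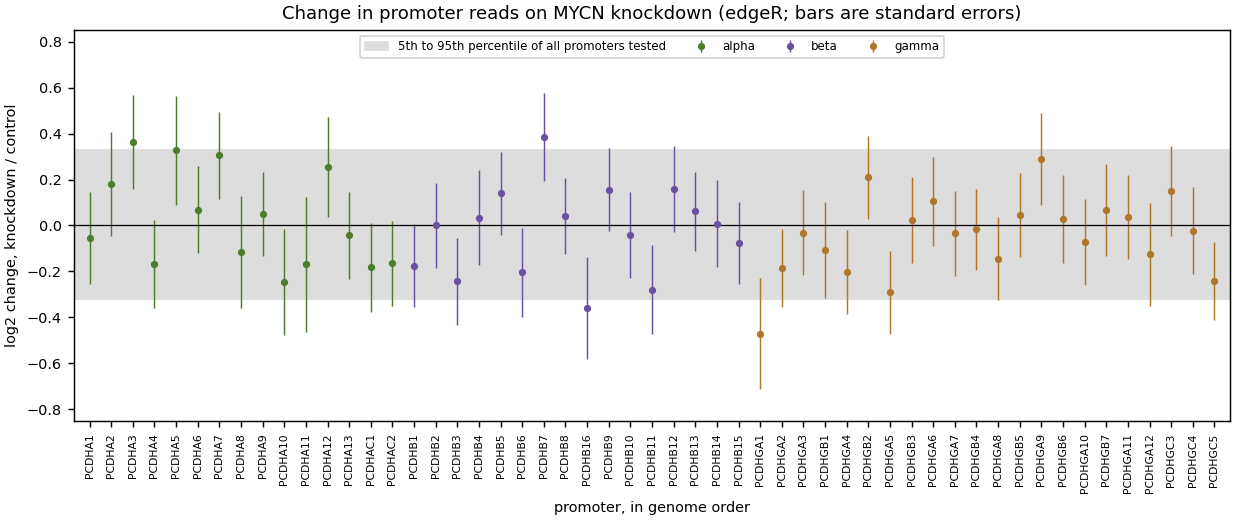
Fitted log2 change in promoter reads, knockdown over control (vertical axis), for the 53 members in genome order (points, coloured by cluster); bars are standard errors from edgeR and the grey band spans the 5th to the 95th percentile of all promoters tested, from -0.32 to 0.33. Most members lie inside the band, and PCDHGA1 at -0.47 is the lowest.

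The smallest p of a higher value belonged to PCDHB7, with 72 and 163 control reads against 88 and 213 after knockdown (log2 change 0.38 ± 0.19 SE, edgeR adjusted p = 0.99999). Each knockdown library was above the control of the same number, but the groups overlapped. PCDHA3 had 80 and 114 reads against 87 and 160 (0.36 ± 0.21), and PCDHA7 had 75 and 161 against 112 and 166 (0.31 ± 0.19). On the lower side PCDHGA1 had 69 and 150 against 46 and 108 (-0.47 ± 0.24), PCDHGA5 had 146 and 182 against 93 and 175 (-0.29 ± 0.18) and PCDHB16 had 68 and 169 against 57 and 121 (-0.36 ± 0.22). The adjusted p of each of these was 0.99999 in edgeR. For PCDHGA1 and PCDHB16 the open window and the low occupancy were thus found in both groups.

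A TSS window that was empty in both controls and filled in both knockdown libraries was found in 2 of 53 members, PCDHB13 and PCDHGA7, beside 2.22% of all promoters. PCDHB13 had 0, 0, 12 and 23 reads in its window, and PCDHGA7 had 0, 0, 8 and 18. The opposite was found in PCDHA10 (6, 10, 0 and 0 reads) and PCDHGA4 (9, 15, 0 and 0 reads), again 2 of 53, beside 2.40% of all promoters. Counts of 2 among 53 are near these backgrounds. In PCDHA10 and PCDHB13 a nucleosome covered the CGCT letters in all 4 libraries, and its centre moved from -32 and -17 bp to 13 and 13 bp in PCDHA10. In all, 18 member windows were empty in both controls and 15 in both knockdown libraries, counts that fell to 11 and 8 with an overlap of 50%.

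Fuzziness, the SD in bp of read centres around a nucleosome, was averaged over the nucleosomes of a promoter by read count. In limma, 0 of 19869 promoters passed an adjusted p of 0.05 (0%), with 486 at an unadjusted p under 0.05, and among the members 0 passed and 1 had an unadjusted p under 0.05. That member was PCDHA11, with 25.7 and 27.7 bp in the controls and 33.8 and 33.7 bp in the knockdown libraries, a difference of 7.06 ± 3.51 bp (SE, limma adjusted p = 0.9999). PCDHA11 also had the lowest mean occupancy of the alpha cluster, with 4 nucleosomes and 34 reads in knockdown replicate 1. With an unweighted mean, 0 members had higher fuzziness after knockdown at an unadjusted p under 0.05 in limma. The mean fuzziness changed from 33.9 to 34.3 bp in the alpha, from 34.5 to 33.8 bp in the beta and from 35.6 to 35.2 bp in the gamma cluster, control against knockdown, differences of unlike sign between clusters. Same-numbered libraries differed by 0.252 and 0.629 bp (alpha), -0.220 and -1.26 bp (beta) and -0.505 and -0.306 bp (gamma). Leaving out control replicate 2 turned the beta and gamma differences to 0.396 and 0.266 bp, and leaving out control replicate 1 turned the alpha difference to -0.205 bp. Replicate 2 libraries had the higher mean in every cluster, so leaving out 1 library also changed the balance of replicate numbers. Without control replicate 2 the median difference over all promoters was 0.881 bp, and without control replicate 1 it was -0.991 bp. By member, mean fuzziness was highest in PCDHAC1 (36.5 bp), PCDHB1 (36.9 bp) and PCDHGB4 (38.3 bp) and lowest in PCDHA11 (30.2 bp), PCDHB6 (30.5 bp) and PCDHGA1 (32.8 bp) of their clusters.

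The promoters of genes that act on these clusters were read beside them. Among 15 regulators (CTCF, the cohesin genes and their loaders and releaser, SMCHD1, SETDB1, WIZ and the DNA methyltransferases) 0 passed in edgeR and 1 had an unadjusted p under 0.05. This was DNMT3B, a DNA methyltransferase that sets new methylation, with 159 and 288 control reads against 138 and 161 after knockdown (log2 change -0.50 ± 0.17 SE, edgeR adjusted p = 0.99999). CTCF had 129 and 176 against 126 and 134 reads. The TSS windows of 8 of the 15 regulators were empty in all 4 libraries and none was filled in all 4. Of 12 protocadherin genes outside the clusters, 0 passed and none had an unadjusted p under 0.05, 4 had empty and 1 a filled window in all 4 libraries. Of 31 neighbouring genes within 500 kb of the outermost member TSSs, 0 passed, PFDN1 had an unadjusted p under 0.05 (63 and 122 against 110 and 133 reads), and 17 had empty and 3 filled windows in all 4 libraries. Beside these lists, with 8 of 15, 4 of 12 and 17 of 31 empty, the members had 12 of 53. The lists are not separate, since PCDH1 and PCDH12 are among both the neighbours and the protocadherins outside the clusters. The neighbour AC005609.1 has its TSS inside the alpha cluster. A neighbour without a gene name has its TSS at position 140602944, next to that of the member PCDHB14 at 140602915. Their promoter windows nearly coincide and held the same reads (97, 160, 94 and 158).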

How the data were processed

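MNase-seq libraries of BE(2)C cells were grouped by their titles. Per the labels and the study's methods, the authors base-called reads with CASAVA 1.9, trimmed them with Trim Galore 0.4.4, mapped read pairs to hg19 with Bowtie2 2.2.4, kept a mapping quality above 10, removed duplicates with Samtools and called nucleosomes in each library with Genetrack, whose versions are not given in the sources used here. The deposited counts are whole-number counts of read pairs per nucleosome, not normalized, with nucleosomes under 6 reads left out. The other deposited value is fuzziness, the SD in bp of read-pair midpoints. Sums over a list count reads in called nucleosomes and are not library depth, and a deeper library passes the minimum at more places.

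The TSS was that of the canonical GENCODE transcript (19881 of 20163 genes, 51 of 53 members) and otherwise the most upstream one. No nucleosome lay past the end of a GRCh37 chromosome. Sequences were read from the GRCh37 genome. Promoter counts within 1000 bp of the TSS were tested with edgeR 4.0.16 in R 4.3.3 (quasi-likelihood, TMM, mean of at least 10 reads, group only), and fuzziness with limma 3.58.1 (with trend, at least 3 nucleosomes in every library), with Benjamini-Hochberg adjustment over all promoters. Other measures are descriptions. Both fits were tested on simulated data: edgeR recovered 31.0%, 84.0% and 100.0% of promoters changed 1.5-fold, 2-fold and 4-fold, and limma 0% and 94.5% of promoters changed by 5 and 10 bp. Each simulation changed 200 promoters, and that of fuzziness gave all promoters the same variance, the median of the data. The members' standard errors in limma ran from 1.50 bp (PCDHGB4) to 3.51 bp (PCDHA11). Recovery for promoters with a larger variance was not simulated. Alternatives were DESeq2 1.42.0, RLE scaling, other windows, TSSs and minimums, a replicate block and leaving out each library. Named members were the extremes of occupancy, gap and fuzziness by cluster, the C-type genes and PCDHB1, the 3 smallest p on each side, and the members with constant or switched windows. Other members were named after their values were seen. The members and lists were chosen with earlier results of these data known.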

Additional observations from a re-analysis of the deposited data

How the results depend on the processing

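The count of changed promoters among all genes and among the members was 0 in edgeR under each window, TSS, minimum, scaling and filter tried and in DESeq2, and leaving out single libraries gave 0 to 3 over all genes (3 without control replicate 2) and 0 among the members. With the replicate number as a block it was 0 as well, with 1092 promoters and 2 members at an unadjusted p under 0.05. The labels name no shared culture or day for same-numbered libraries, which had similar read totals and mean fuzziness (34.6 bp in both replicate 1 libraries and 36.1 bp in both replicate 2 libraries). The correlation of what set them off from their group mean was 0.22 over 20099 promoters, with 2 pairs only. The median log2 change of the members ran from -0.044 to 0.026 when single libraries were left out, above 0 without control replicate 2. Promoters of changed fuzziness in limma numbered 12 with the replicate block (0 members, with 1165 promoters and 4 members at an unadjusted p under 0.05), 3 with at least 1 nucleosome required, and 0 to 2 with single libraries left out. With an overlap of 50%, and with the nucleosome centre inside, empty windows numbered 11 in both controls, 8 in both knockdown libraries and 7 in all 4. With the window from 2000 bp upstream to 1000 bp downstream, relative occupancy was 0.756 (alpha), 0.866 (beta) and 0.892 (gamma), and scaled to chromosome 5 promoters it was 0.890, 1.07 and 1.06. The alpha difference in fuzziness was 0.146 bp unweighted and -0.123 bp at the most upstream TSS, and the gamma difference -0.558 bp there. Leaving out single libraries gave -0.393 to 1.27 bp (alpha), -1.87 to 0.396 bp (beta) and -1.18 to 0.365 bp (gamma). The sign of each difference thus changed with the library left out. Each such comparison has unequal numbers of replicate 1 and replicate 2 libraries. Over all promoters the median difference in limma ran from -0.991 to 0.881 bp under the same omissions. Differences between same-numbered libraries kept the same sign within each cluster, with 2 pairs only. The cause of the shifts between settings was not tested. Chosen after seeing the data, a limit of 60 bp gave 20 covered and 8 uncovered CGCT positions, and the most upstream copy of the letters 26 and 8. Without the members with repeats over 10% these were 21 and 8. With 2 libraries per group and a median of 12 to 18 reads per nucleosome, single nucleosomes were not tested, and the simulated recovery covers promoter sums and promoter means only.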

Other observations

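Across whole clusters, from 2000 bp before the first to 3000 bp after the last TSS, reads in nucleosomes per 10 kb stood at 0.815, 0.839, 0.799 and 0.832 of the median autosomal 10-kb bin in the alpha cluster (control 1, control 2, knockdown 1 and knockdown 2). The beta cluster had 0.838, 0.897, 0.831 and 0.887, and the gamma cluster 0.957, 1.01, 0.963 and 0.962. Chromosome 5 had 0.894 to 0.900. The clusters had the same order in every library, and the values of control and knockdown overlapped in each cluster.

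The 46 CGCT positions upstream of the TSS lay at a median of 228 bases before the start codon, with quartiles of 203 and 240.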
